A study of Mus musculus with 15 samples.

Results

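The genes described here encode the subunits of the nuclear RNA polymerases I, II and III of the mouse. They were chosen by symbol alone, as every gene called Polr1, Polr2 or Polr3 followed by letters only. This gave 27 of the 51627 genes in a table of embryonic stem cells (ESCs) and 28 of the 53564 genes in a table of embryos; Polr3d is the additional gene in the embryo table, and in the ESCs it was not analysed here. By the polymerase they serve, 3 belong to Pol I only (Polr1a, Polr1b, Polr1e), 2 to Pol I and Pol III (Polr1c, Polr1d), 5 to all 3 enzymes (Polr2e, Polr2f, Polr2h, Polr2k, Polr2l) and 7 to Pol II only (Polr2a, Polr2b, Polr2c, Polr2d, Polr2g, Polr2i, Polr2j). Polr2m encodes a protein that associates with Pol II, and 9 genes in the ESC table and 10 in the embryo table belong to Pol III only.

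The series asked how Zscan4, a family of near-identical zinc finger genes switched on in 2-cell embryos and in a few ESCs, acts on chromatin and gene expression. In ESCs, 2 wild-type control libraries were set against 2 libraries labelled as Zscan4 overexpression (OE), all from J1 mouse ESCs at a passage given as PN+8 and grown without feeder cells. In embryos at the 2-cell stage, 5 wild-type control libraries were set against 6 libraries labelled as Zscan4 RNAi. The labels do not say how Zscan4 was raised or lowered, whether the overexpressing cells were 1 clone, or how many embryos were pooled in a library. They do not say either that replicates were separate cultures or pools. The p-values therefore cover only library-to-library spread, which may be technical.

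Every nuclear RNA polymerase is a complex of many subunits built around a pair of large catalytic proteins. Pol I makes the precursor of the large ribosomal RNAs, Pol II makes messenger RNAs and many small nuclear RNAs, and Pol III makes transfer RNAs, the small ribosomal RNA and other short RNAs. A set of small subunits is shared by all of them, a further pair is shared by Pol I and Pol III, and the rest are particular to 1 enzyme. In the mouse, the embryo's own genome is first transcribed in earnest at the 2-cell stage, when stored maternal RNA is being cleared, so RNA in an embryo of this stage is a mixture of maternal and new transcripts.

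Values are normalised reads, that is the reads of a gene scaled by a single factor for each library. Each ESC library had 21820093 to 26555027 reads assigned to genes and each embryo library 695524 to 1432566, and a single embryo read corresponded to between 0.687 and 1.39 normalised reads. The summed level of the Zscan4 family was 152 and 212 in the control ESCs and 20005 and 19449 in the overexpressing ones. It was 345 to 1064 in the control embryos and 13.9 to 383 in the RNAi embryos, so that 1 control, control 5, lay inside the RNAi range. The replicates were not equally close: the median SD of a gene's log2 value was 0.09 between the control ESC libraries, 0.41 between the overexpression libraries, 0.78 among control embryos and 0.89 among RNAi embryos. Genes of the ESC marker list were present in the ESCs (a sum of 95780 to 96034 normalised reads in controls and 106052 to 136439 after overexpression), and oocyte and early embryo markers were present in the embryos (1994 to 4014 in controls and 3749 to 10200 after RNAi). In the embryos the cumulus or granulosa markers Has2, Inha and Amh, the fibroblast marker Col3a1 and the blood marker Hbb-bs were listed at 0 in all libraries, but other genes of these lists were detected. The sums were 60.9 to 76.0 in controls and 10.4 to 51.1 after RNAi for the cumulus or granulosa list (led by Nr5a2), 2.34 to 24.3 and 5.74 to 43.0 for the feeder or fibroblast list (led by Postn), and 33.9 to 70.4 and 7.82 to 143 for the blood list (led by Hba-a1). Of these genes 1 blood marker was called lower; the part of these lists in the subunit values was not tested. In such bulk samples, fewer cells of a type and less RNA per cell cannot be told apart.

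The upstream sequences of the Pol I-only members and of the members that fell in ESCs are shown so that the genes can be placed and their promoters compared. They are the 250 bases before the RefSeq start of each gene on GRCm38.p6, written 5′ to 3′ on the gene's own strand, with the GC box GGGCGG in capitals. Polr1a (chr6:71908803-71909052, plus strand) encodes the largest Pol I subunit, Polr1b (chr2:129100746-129100995, plus strand) the second largest, and Polr1e (chr4:45018359-45018608, plus strand) a Pol I subunit that acts in initiation and elongation. Polr2a (chr11:69758634-69758883, minus strand) encodes the largest Pol II subunit, and Polr3gl (chr3:96594182-96594431, minus strand) encodes the form of a Pol III initiation subunit that has Polr3g as its paralog. The Polr1e stretch is less certain, as it runs past the GENCODE vM21 start of the gene, 45018583. The bases after its RefSeq start were not found in GENCODE transcripts of the gene, unlike those of the other genes printed.
Polr1a: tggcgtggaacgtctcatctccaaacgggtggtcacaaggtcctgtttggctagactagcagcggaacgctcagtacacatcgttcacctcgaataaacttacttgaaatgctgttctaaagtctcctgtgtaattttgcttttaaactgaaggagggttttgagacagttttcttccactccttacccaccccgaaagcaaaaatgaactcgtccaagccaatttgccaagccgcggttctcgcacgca
Polr1b: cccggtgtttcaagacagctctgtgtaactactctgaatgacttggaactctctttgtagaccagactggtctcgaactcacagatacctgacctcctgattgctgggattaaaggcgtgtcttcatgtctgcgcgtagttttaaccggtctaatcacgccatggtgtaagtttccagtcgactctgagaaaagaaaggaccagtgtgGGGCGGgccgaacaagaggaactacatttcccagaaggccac
Polr1e: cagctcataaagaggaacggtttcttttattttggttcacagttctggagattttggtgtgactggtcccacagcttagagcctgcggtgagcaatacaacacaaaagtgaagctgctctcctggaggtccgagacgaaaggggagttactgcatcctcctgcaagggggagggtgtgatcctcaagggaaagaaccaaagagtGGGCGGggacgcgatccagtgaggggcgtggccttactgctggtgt
Polr2a: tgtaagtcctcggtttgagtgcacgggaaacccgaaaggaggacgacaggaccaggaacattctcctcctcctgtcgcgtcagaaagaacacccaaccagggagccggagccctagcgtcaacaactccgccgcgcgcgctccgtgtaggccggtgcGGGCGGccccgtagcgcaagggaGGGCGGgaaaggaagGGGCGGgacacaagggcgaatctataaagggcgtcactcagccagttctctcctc
Polr3gl: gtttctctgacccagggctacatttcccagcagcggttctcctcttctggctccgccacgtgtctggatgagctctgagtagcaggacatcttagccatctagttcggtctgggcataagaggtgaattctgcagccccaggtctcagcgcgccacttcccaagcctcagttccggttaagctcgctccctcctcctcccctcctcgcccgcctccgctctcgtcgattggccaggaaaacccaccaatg
On the strand printed, the GC box occurred 3 times in the Polr2a sequence and 1 time each in those of Polr1b and Polr1e. The GC content was 62.8% for Polr2a and 59.2% for Polr3gl, and 47.6% for Polr1a, 49.6% for Polr1b and 53.2% for Polr1e. RefSeq promoters, 24 in all, were found for 22 of the 28 members. A member was counted once if any of its promoters held a motif. The shares over all promoters count each promoter singly, so the units differ. Over both strands (GGGCGG or CCGCCC), 14 of these 22 (63.6%) held a GC box, against 32.7% of all 32851 promoters of the same length. The ETS-type core CCGGAAG (or CTTCCGG) was present in 5 of 22 (22.7%; Polr1c, Polr2f, Polr2j, Polr3b and Polr3g), against 6.91% of all promoters. The E-box CACGTG was present in 2 of 22 (9.09%, against 6.02%), those of Polr3c and Polr3gl, the CCAAT box (CCAAT or ATTGG) in 7 (31.8%, against 33.8%) and TATAAA (or TTTATA) in 2 (9.09%, against 12.4%), those of Polr2a and Polr2c. The longer NRF1-type and YY1-type motifs were found in 0 of 22 members, and in 0.782% and 0.207% of all promoters. Over the members' 24 promoters the median GC content was 60.4%, against 52.4% over all promoters, and the median number of CpG dinucleotides was 16.5, against 6. These matches describe letters in a window and are not binding sites.

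In ESCs, all 3 Pol I-only members of the naming rule rose with Zscan4 overexpression, whereas the largest Pol II subunit, Polr2a, fell 2.54-fold. Pol I subunits under older symbols are given below, and not all of them passed. In all, 7 of the 27 members rose (Polr1a, Polr1b, Polr1e, Polr2l, Polr2m, Polr3c, Polr3e), 2 fell (Polr2a, Polr3gl) and 18 did not pass an adjusted p of 0.05 by limma. Over all 20888 genes tested, 11.7% rose and 11.4% fell (23.2% in either direction). The members' log2 fold changes had a median of 0.54 and a range from -1.64 to 1.73, against a median of -0.02 over all genes tested, and 23 of 27 were above 0. In 19 members both overexpression libraries lay above both controls, which was so for 34.2% of all genes, and in 3 both lay below, which was so for 34.6%. All of these adjusted p-values rest on how alike the controls were: without control 1 or without control 2, limma called 0 of 27 members (4 and 2 at an unadjusted p under 0.05) and 0 of all genes, and it called 24 and 21 members without overexpression library 1 or 2. With all 4 libraries edgeR called 8 members and DESeq2 called 12.

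**Figure D1:**
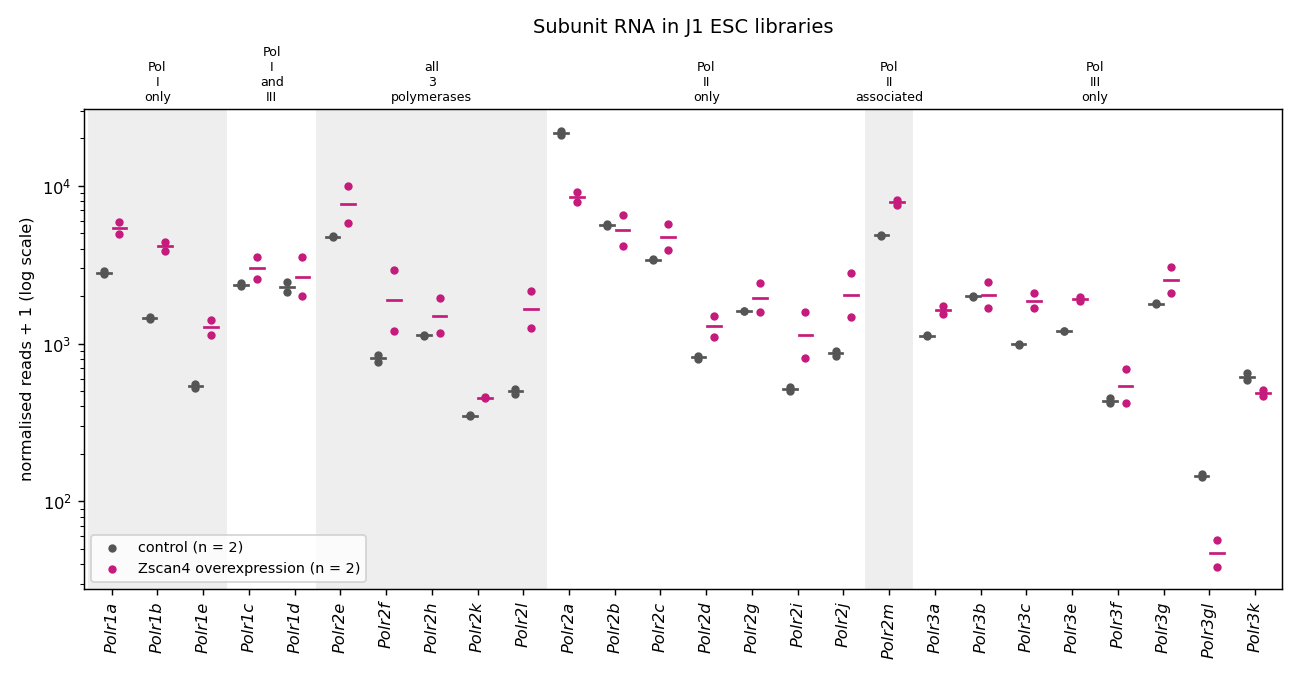
Normalised reads + 1 (log axis) of the members in the 4 ESC libraries, grouped by polymerase; points are libraries and bars are means on the log scale. The control points lie almost on top of each other, the overexpression points spread more, and Polr2a and Polr3gl stand out as members whose overexpression libraries lie far below the controls.

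Among the 3 Pol I members, the increase was 1.93-fold to 2.85-fold. Polr1a was at 2746 and 2882 normalised reads in the controls and at 5899.9 and 4946 after overexpression, a mean of 2814 ± 96.5 against 5423 ± 674 (SD, n = 2 each) and a log2 fold change of 0.94 (SE 0.17, limma adjusted p = 0.0298). Polr1b was at 1466 and 1435 in the controls and at 4427 and 3845 after overexpression, 2.85-fold higher (1450.5 ± 21.7 against 4136 ± 412, SD, n = 2; limma adjusted p = 0.0149). Both overexpression libraries were above both controls in each gene, and the differences between groups were larger than those within them. Polr1e, on chromosome 4 (45018583 to 45036565, plus strand), was at 555 and 522 and then at 1133 and 1410.3, 2.36-fold higher (539 ± 23.3 against 1272 ± 196, SD, n = 2; limma adjusted p = 0.0239). Polr1b lies at 129100995 to 129126594 of chromosome 2 and Polr1a at 71909053 to 71984935 of chromosome 6, both on the plus strand (GENCODE vM21, mm10). An exon of Polr1a shares 185 bases with the antisense gene Gm26628, and the strand setting of the counting is not given in the sources used here, so its value is less certain.

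Other Pol I subunits are listed in these tables under older symbols outside the naming rule. Cd3eap, the partner of Polr1e in the same Pol I subcomplex, rose 5.70-fold, from 196 ± 29.7 to 1119 ± 235 normalised reads (SD, n = 2 each; limma adjusted p = 0.0137); it overlaps Ercc1. Znrd1, a small Pol I subunit, was at 446 ± 10.1 against 1123 ± 445 (limma adjusted p = 0.0569), and Twistnb, a subunit of the Pol I stalk, had a log2 fold change of 0.49 (adjusted p = 0.159), so neither passed. Polr1c and Polr1d form the assembly core shared by Pol I and Pol III, and neither passed the test. Polr1c was at 2407 and 2311 in the controls and 2579.9 and 3554 after overexpression (limma adjusted p = 0.277). Polr1d was at 2125 and 2443 against 2000.1 and 3530.0 (adjusted p = 0.643), so that its overexpression libraries lay on either side of the controls.

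Of the 5 subunits shared by all the enzymes, Polr2l passed the test. Polr2l, a small subunit of the assembly core, was at 518 and 475 in the controls and at 1259 and 2164 after overexpression, 3.45-fold higher (496 ± 30.8 against 1711 ± 639.8, SD, n = 2; limma adjusted p = 0.029). It had the largest log2 fold change of the members, 1.73 (SE 0.31). The other 4 (Polr2e, Polr2f, Polr2h, Polr2k) had log2 fold changes from 0.38 to 1.22 and did not pass, with both overexpression libraries above both controls in each. Polr2f showed the widest spread, at 847 and 766 against 1196 and 2946 (limma adjusted p = 0.128), and Polr2k the narrowest, at 352 and 344 against 456 and 452 (adjusted p = 0.19). DESeq2 and limma with a replicate block called Polr2f higher.

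Pol II's own subunits did not move together. Polr2a, whose protein carries the repeated C-terminal tail on which Pol II is phosphorylated, was at 21027 and 22324 in the controls and at 9137 and 7924 after overexpression. This is a 2.54-fold fall (21676 ± 917 to 8531 ± 858, SD, n = 2; log2 fold change -1.35, SE 0.17, limma adjusted p = 0.0181). Polr2b, the second largest subunit, was at 5702 and 5570.0 against 6563 and 4149.9, with 1 overexpression library above both controls and 1 below (limma adjusted p = 0.789). The remaining 5 Pol II subunits had log2 fold changes between 0.28 and 1.23 and did not pass. Polr2j and Polr2i came nearest (limma adjusted p = 0.0697 and 0.0904), with Polr2j at 896 and 839 against 1479.5 and 2802. DESeq2 and limma with a replicate block called both of them higher, and voom with quality weights called Polr2j higher. Polr2m, which encodes a Pol II-associated protein known to hold the enzyme back from initiation, was at 4879 and 4827 against 8165 and 7591, 1.62-fold higher (4853 ± 37.2 against 7878 ± 406, SD, n = 2; limma adjusted p = 0.042). That call ended without the filter on low values (adjusted p = 0.0533) and with quantile normalisation (0.0613).

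Polr2a lies on chromosome 11 (69733997 to 69758637, minus strand), and it is the only member on that chromosome. The 1537 tested genes of chromosome 11 had a median log2 fold change of -0.49, whereas the medians of the other chromosomes ran from -0.12 to 0.29. Of the chromosome 11 genes, 401 (26.1%) had a lower log2 fold change than Polr2a. Whether Polr2a's fall and the lower values of its chromosome share a source was not tested.

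Within Pol III, 2 subunits rose, 1 fell and 6 did not pass, where 11.7% of all genes tested rose and 11.4% fell. Polr3c, part of the trimer that opens the promoter, was at 980.1 and 997 against 1675 and 2085, 1.90-fold higher (989 ± 12 against 1879.9 ± 290.3, SD, n = 2; limma adjusted p = 0.0362; 0.0510 with quantile normalisation). Polr3e, of the subcomplex that acts in initiation and termination, was at 1205 and 1196 against 1962 and 1848, 1.59-fold higher (1201 ± 5.97 against 1905 ± 80.6, SD, n = 2; limma adjusted p = 0.0466); edgeR and DESeq2 did not call it. The largest subunits were less clear. Polr3a, the largest, was at 1109.6 and 1133 against 1733 and 1539, with no overlap but a limma adjusted p of 0.0786, and Polr3b, the second largest, was at 1983 and 2015 against 2472 and 1681 (adjusted p = 0.941). Polr3k, a small subunit with a role in RNA cleavage, was at 585 and 647 against 509.6 and 467 (limma adjusted p = 0.239). Crcp, a Pol III subunit outside the naming rule, had a log2 fold change of -0.46 (limma adjusted p = 0.236).

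Polr3g and Polr3gl are alternative forms of the same Pol III subunit, and Polr3g is known as the form of stem cells. Polr3gl was at 142 and 147 in the controls and 37.4 and 56.0 after overexpression, a 3.09-fold fall (144 ± 3.58 to 46.7 ± 13.2, SD, n = 2; log2 fold change -1.64, SE 0.33, limma adjusted p = 0.0349; 0.0658 with voom quality weights). Polr3g was at 1776 and 1801 against 3074 and 2084 and did not pass (adjusted p = 0.195). Of the reads of the pair, Polr3gl held 7.40% (exact binomial 95% interval 6.29 to 8.63) and 7.54% (6.45 to 8.76) in the controls. It held 1.20% (0.86 to 1.63) and 2.62% (1.93 to 3.47) after overexpression. The intervals cover counting error only. Those of the control libraries do not overlap those of the overexpression libraries, but those of the 2 overexpression libraries do not overlap each other either. Separate intervals thus occur between replicates as well as between groups. Per kilobase of exon, the level of Polr3g was 5.08 and 4.97 times that of Polr3gl in the controls and 33.4 and 15.1 times after overexpression.

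The class values that follow cover only members of the naming rule and leave out Cd3eap, Znrd1, Twistnb and Crcp. Averaged over genes on the log2 scale, the level of the Pol I-only members minus that of the Pol II-only members was -0.76 and -0.75 in the control libraries. After overexpression this difference was 0.35 in library 1 and -0.07 in library 2. The difference between Pol III and Pol II subunits was -1.55 and -1.52 in controls and from -1.88 to -1.42 after overexpression, a range that holds both control values. The class medians of the log2 fold change were 1.23 for Pol I, 0.29 for the Pol I and III pair, 0.68 for the subunits of all 3 enzymes, 0.47 for Pol II and 0.50 for Pol III.

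**Figure D2:**
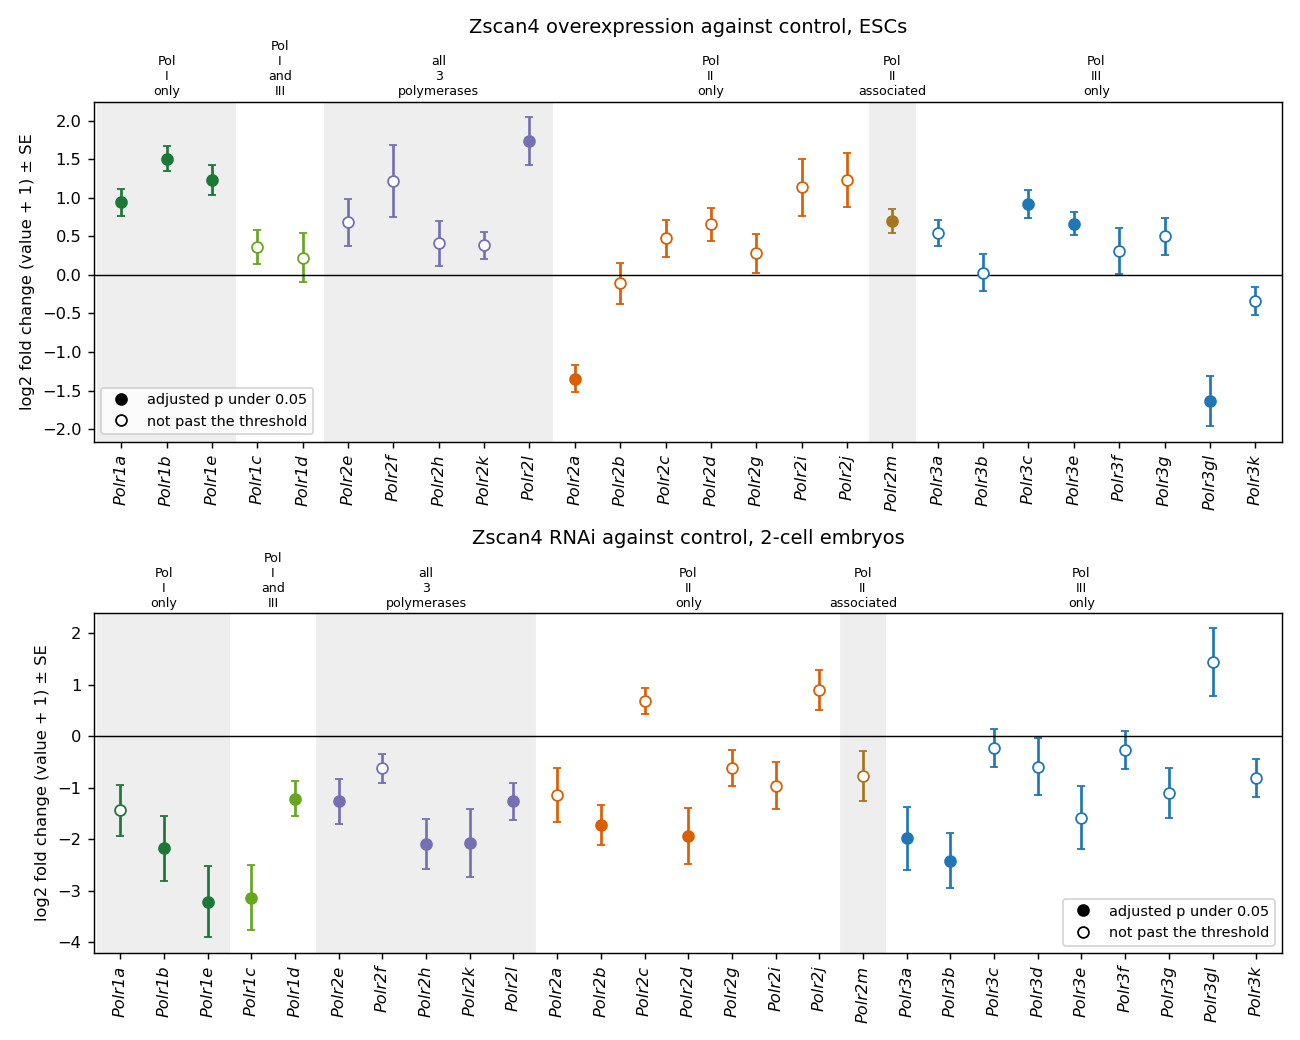
Log2 fold change of value + 1 with its SE from limma for each member, in ESCs (upper panel, overexpression against control) and 2-cell embryos (lower panel, RNAi against control), grouped by polymerase; filled points passed an adjusted p of 0.05. In ESCs 7 filled points lie above 0 and 2 below, and in embryos all 12 filled points lie below 0.

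The overexpression libraries differed from each other by gene length. Across the 27 members, the log2 difference of overexpression library 2 minus library 1 was lower in genes of greater log10 exon length (Pearson r = -0.57, Spearman rho = -0.67), and the same was so, more weakly, across 20809 genes with a length (r = -0.22, rho = -0.33). The points share the same libraries and are not independent. Of the 13 members shorter than 3124 bases, 11 were higher in library 2, with a median difference of 0.74, and of the 14 others 10 were higher in library 1, with a median of -0.19. Between the controls the members gave r = 0.26 and all genes r = -0.002. The short subunits Polr2f, Polr2i, Polr2j, Polr2l and Polr2e are among those whose overexpression values spread most; the part of gene length in the fold changes was not tested.

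**Figure D3:**
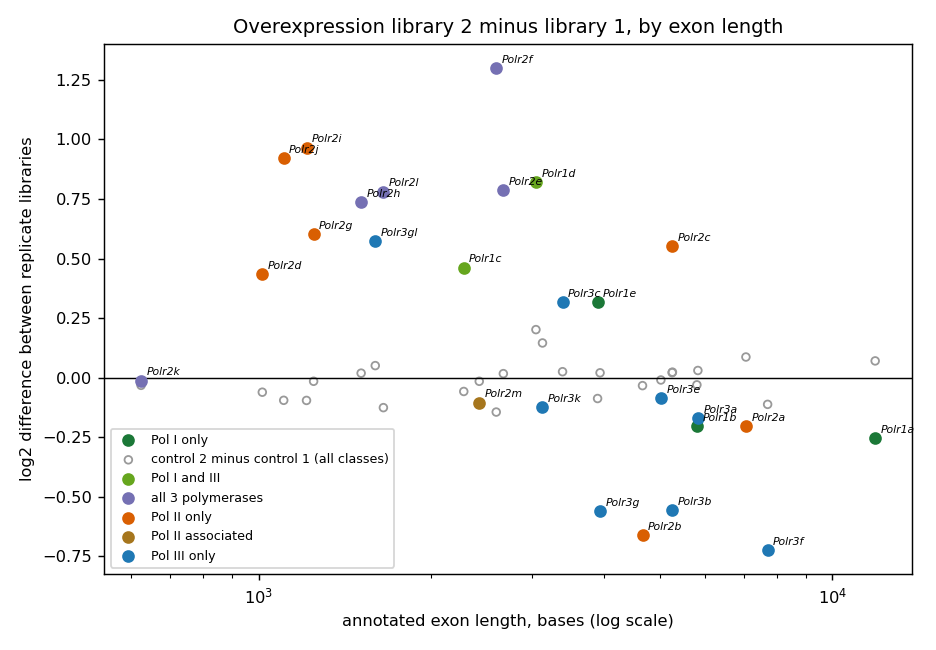
Log2 difference of overexpression library 2 minus library 1 (filled points, coloured by polymerase) and of control 2 minus control 1 (open grey points) against annotated exon length in bases (log axis), 1 point per member. Short members lie mostly above 0 and long ones mostly below 0 for the overexpression pair (medians 0.74 and -0.19), while the control differences stay near 0.

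Most of the factors that work with the polymerases, listed by function, were not called in ESCs, and the counts stand beside 11.7% higher and 11.4% lower over all genes tested. Of the tested Pol I initiation and termination factors 3 of 8 rose and 5 did not pass, with a median log2 fold change of 0.47; Taf1a and Taf1c, subunits of the Pol I selectivity factor, rose 2.44-fold (limma adjusted p = 0.0209) and 3.10-fold (adjusted p = 0.0211; Taf1c overlaps Dnaaf1). Of the Pol III factors 3 of 17 rose and 14 did not pass (median 0.36), among them Gtf3c6 of the factor TFIIIC, from 358 ± 4.37 to 1189.5 ± 157 normalised reads (SD, n = 2; limma adjusted p = 0.015), and Brf1 of TFIIIB, 2.39-fold (adjusted p = 0.0244). Of the Pol II general factors 6 of 30 rose and 24 did not pass (median 0.25), including Gtf2f1 of TFIIF, 2.54-fold, and Taf12 of TFIID, 2.12-fold (limma adjusted p = 0.0283 and 0.0292). Of the Pol II elongation factors 4 of 23 rose and 19 did not pass (median 0.36), including Paf1, 2.58-fold, and Ctr9, 1.88-fold, both of the PAF complex (limma adjusted p = 0.0177 and 0.0408). Of the assembly factors 2 of 11 rose and 1 fell (median 0.16): Gpn1, a GTPase that helps bring Pol II into the nucleus, rose 2.43-fold, Uri1 rose 1.71-fold and Rpap1 fell 1.60-fold (limma adjusted p = 0.0194, 0.0473 and 0.0468). Gpn1 overlaps 4930566F21Rik and Brf1 overlaps 9230104M06Rik. Uri1 was not called by edgeR, and Rpap1 was not called by edgeR or DESeq2. Of 6 genes of mitochondrial transcription 2 rose and 4 did not pass (median 0.33), namely Tfb2m, 2.27-fold, and Mterf1a, 2.39-fold (limma adjusted p = 0.0252 and 0.0369). Like the members' calls, these were all lost without control 1 or control 2, and that of Mterf1a also without overexpression library 2 (adjusted p = 0.0562) and with voom quality weights (0.0595). The call of Ctr9 was also lost without the filter (0.0504) and with quantile normalisation (0.0514), that of Uri1 without the filter (0.0584), with quantile normalisation (0.0508) or with TMM scaling (0.0512), and that of Rpap1 without the filter (0.0588). In these same libraries the 8 oocyte and early embryo markers summed to 110 and 112 in controls and to 333 and 638 after overexpression. Of these markers 2 of 6 tested were called higher, with Oosp1 at 0 throughout. The sums were led by Zp3, and the markers did not move together. By their means Zp3, Bmp15, Nlrp5 and Gdf9 were higher after overexpression, whereas Zp1, Zp2 and Padi6 were lower. The part of these markers in the subunit values was not tested.

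In 2-cell embryos the subunit RNAs that changed with Zscan4 RNAi fell, and they came from every enzyme. Of the 28 members 12 fell (Polr1b, Polr1e, Polr1c, Polr1d, Polr2e, Polr2h, Polr2k, Polr2l, Polr2b, Polr2d, Polr3a, Polr3b), 0 rose by limma and 16 did not pass, where 12% of the 16417 genes tested fell and 6.13% rose (18.2% in either direction). At an unadjusted p under 0.05 there were 22 members, and edgeR and DESeq2 each called 1 member higher, Polr2c. The median log2 fold change was -1.17, with a range from -3.21 to 1.45, against -0.03 over all genes tested, and 25 of 28 were below 0. The groups did not overlap in 4 members that were lower after RNAi (Polr1a, Polr1e, Polr1c, Polr3b) and in 1 that was higher (Polr2c), where 4.28% and 3.05% of all genes did not overlap in these directions. The calls of Polr1c, Polr1e, Polr2b, Polr2h and Polr3b held in all 20 alternative analyses. Without control 2 limma called 5 of 28 members and without control 3 it called 6. The oocyte and early embryo markers, whose sums are given above, were called higher after RNAi for 2 of 8 genes, with sums that overlap between the groups. The ESC marker list summed to 525 to 985 in controls and 241 to 381 after RNAi, with 2 of 8 called lower. The ESC marker sums were led by Dppa5a. By their means Dppa5a, Klf4, Esrrb, Zfp42 and Sox2 were lower after RNAi, whereas Pou5f1, Tdgf1 and Nanog were higher. The part of these lists in the subunit values was not tested.

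**Figure D4:**
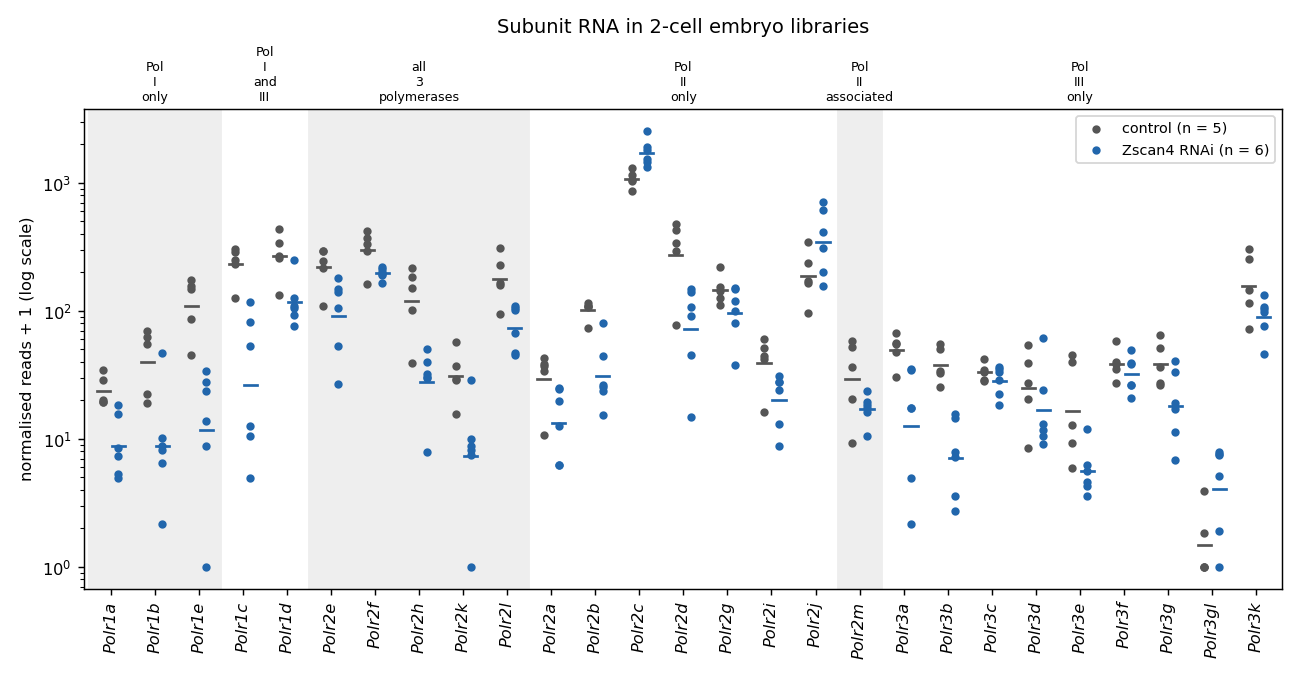
Normalised reads + 1 (log axis) of the members in the 5 control and 6 RNAi embryo libraries, grouped by polymerase; points are libraries and bars are means on the log scale. Most members lie lower after RNAi with wide spread in both groups, Polr2c lies higher in all 6 RNAi libraries than in any control, and Polr3gl has few reads in any library.

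The largest falls were those of Polr1e, of Pol I, and Polr1c, of the pair that Pol I shares with Pol III. Polr1e was at 85.5, 156, 146, 173 and 44.0 normalised reads in controls 1 to 5 and at a median of 17.7 after RNAi, from 0 in RNAi library 3 (a count of 0 allows up to 3.91 here) to 32.8. It fell 7.05-fold (121 ± 54.3, n = 5, against 17.2 ± 12.4, n = 6, SD; log2 fold change -3.21, SE 0.69, limma adjusted p = 0.00538). All controls were above all RNAi libraries, with control 5 the nearest. Polr1c was at 304, 233, 289, 251 and 126 in the controls and at 3.91 to 117 (median 31.9) after RNAi, a 5.24-fold fall (241 ± 70.0 to 45.9 ± 46.1, SD, n = 5 and 6; log2 fold change -3.13, SE 0.64, limma adjusted p = 0.00421). Its partner Polr1d was at 268, 339, 438, 259.9 and 133 against 74.6 to 247 (median 105), a 2.30-fold fall (limma adjusted p = 0.0217). RNAi library 2, at 247, lay within the range of the Polr1d controls, and that call ended without control 2, control 3 or RNAi library 6 (adjusted p = 0.0602, 0.0692 and 0.0501).

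The catalytic subunits of Pol I were sparsely counted in the embryos. Polr1b was at 53.7, 61.2, 18.1, 69.1 and 21.5 in the controls and at 1.16 to 45.9 (median 7.51) after RNAi, a 3.50-fold fall (44.7 ± 23.4 to 12.8 ± 16.5, SD, n = 5 and 6; log2 fold change -2.18, SE 0.63, limma adjusted p = 0.0224). RNAi library 2, at 45.9, was the only RNAi library inside the control range; the call ended without control 1, 2 or 4 (adjusted p = 0.0553, 0.065 and 0.0692) and with edgeR (0.0848). Polr1a was at 19.3, 18.4, 33.4, 28.1 and 18.6 against 3.91 to 17.4 (median 6.93), so the groups did not overlap, with a log2 fold change of -1.43 (SE 0.50) and a limma adjusted p of 0.0504. Under older symbols, the Pol I subunits Znrd1 and Cd3eap fell 7.06-fold and 5.18-fold (limma adjusted p = 0.00612 and 0.00947): Znrd1 from 91.6 ± 57.6 to 13 ± 26.6 and Cd3eap from 32.5 ± 16.6 to 6.28 ± 5.44 normalised reads (SD, n = 5 and 6). DESeq2 did not call Znrd1 (adjusted p = 0.0506). Twistnb and the Pol III subunit Crcp did not pass (limma adjusted p = 0.296 and 0.117).

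Of the subunits of all 3 enzymes, 4 of 5 fell. Polr2h was at 99.8, 183, 216, 151 and 38.1 in the controls and at 6.94 to 49.2 (median 30.4) after RNAi, a 4.46-fold fall (138 ± 70.1 to 30.8 ± 14.0, SD, n = 5 and 6; limma adjusted p = 0.00753). Only control 5 lay within the RNAi range. Polr2k was at 28.5, 36.1, 55.7, 28.1 and 14.7 against 0 in RNAi library 4 (where a count of 0 allows up to 3.48) to 27.9 in RNAi library 2 (median 7.51), a 3.35-fold fall (limma adjusted p = 0.0344). Polr2l was at 164, 227, 309, 158 and 92.9 against 44.3 to 108 (median 83.4), a 2.43-fold fall (limma adjusted p = 0.0213). Polr2e was at 215, 291, 246, 290.3 and 109 against 26.1 to 179.9 (median 121), a 2.13-fold fall (limma adjusted p = 0.0477). In Polr2k, Polr2l and Polr2e, too, control 5 was the lowest control. The call of Polr2e was the least stable, lost in 13 of 20 alternatives (adjusted p up to 0.115, without control 2), and the call of Polr2k was lost in 9 (up to 0.0949, without control 3); that of Polr2l ended without control 2 or control 3 (adjusted p = 0.0601 and 0.0701). Polr2f, the remaining one, was at 160.3 to 423 in controls and 164 to 218 after RNAi (limma adjusted p = 0.127).

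Within Pol II, the second largest subunit and a stalk subunit fell, while the subunits of the assembly heterodimer had values in the other direction. Polr2b was at 115, 108, 72.4, 105 and 109 in the controls and at 14.3 to 78.7 (median 24.9) after RNAi, a 2.93-fold fall (102 ± 16.8 to 34.8 ± 23.5, SD, n = 5 and 6; log2 fold change -1.72, SE 0.39, limma adjusted p = 0.0071). Polr2d, of the stalk that binds emerging RNA, was at 335, 472, 429, 295 and 76.2 against 13.9 to 146 (median 98.5), a 3.57-fold fall (limma adjusted p = 0.0186), lost without control 2 or control 3 (adjusted p = 0.0576 and 0.0544). Control 5, at 76.2, lay within the RNAi range. Polr2a was at 36.1, 42, 9.74, 32.8 and 37.1 against 5.21 to 23.8 (median 15.3), and did not pass (limma adjusted p = 0.136). Control 3, at 9.74, lay within the RNAi range of that gene.

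Polr2c and Polr2j pair in Pol II at the place that Polr1c and Polr1d take in Pol I and Pol III. Polr2c was at 865, 1052, 1305, 1146 and 1028 in the controls and at 1330.0 to 2548 (median 1665) after RNAi, without overlap. Its mean was 1.63 times higher (1079 ± 162 to 1762 ± 442, SD, n = 5 and 6; log2 fold change 0.68, SE 0.25), with a limma adjusted p of 0.0586. Polr2j was at 94.8, 234, 169.8, 165 and 345 against 155 to 708 (median 360.0), with a log2 fold change of 0.90 (SE 0.39, limma adjusted p = 0.115) and overlapping groups. Exons of Polr2c share 953 bases with the antisense gene Dok4 and those of Polr2j 176 with Lrwd1, so these values are less certain. The subunits Polr2g and Polr2i and the associated Polr2m had log2 fold changes of -0.61, -0.96 and -0.77 and did not pass (limma adjusted p = 0.24, 0.149 and 0.279).

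In Pol III both catalytic subunits fell and the other 8 did not pass, where 12% of all genes tested fell. Polr3b was at 32.7, 49.4, 54.3, 31.6 and 24.4 in the controls and at 1.74 to 14.8 (median 6.57) after RNAi, a 5.05-fold fall without overlap (38.5 ± 12.7 to 7.63 ± 5.44, SD, n = 5 and 6; log2 fold change -2.41, SE 0.53, limma adjusted p = 0.00589). These values rest on 197 reads over the controls and 52 over the RNAi libraries. Polr3a was at 29.4, 66.4, 54.3, 46.8 and 54.7 against 1.16 to 34.3 (median 16.5), a 2.85-fold fall (limma adjusted p = 0.0311), with control 1 inside the RNAi range. That call ended with edgeR (adjusted p = 0.103), without control 2, 3 or 4 (0.0793, 0.0679 and 0.0646) and without RNAi library 3 or 4 (0.0682 and 0.0532). The initiation subunits Polr3c and Polr3f had log2 fold changes of -0.23 and -0.27 (limma adjusted p = 0.705 and 0.648). Polr3d and Polr3e, which form the initiation and termination subcomplex, had values of -0.58 and -1.57 (limma adjusted p = 0.497 and 0.0791), and the cleavage subunit Polr3k one of -0.81 (limma adjusted p = 0.141).

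Polr3g was at 25.2, 50.2, 64.0, 35.1 and 26.4 in the control embryos and at 5.80 to 39.8 (median 17.1) after RNAi, with overlap (limma adjusted p = 0.117). Polr3gl had 4 reads over all control libraries and 28 over all RNAi libraries. Its normalised reads were 0.839, 0, 0, 0 and 2.93 in controls 1 to 5 and 0 to 6.94 (median 5.32) after RNAi, and it did not pass (limma adjusted p = 0.126). Where it had no read, in controls 2, 3 and 4 and RNAi library 4, a count of 0 allows up to 2.21, 4.17, 3.51 and 3.48 normalised reads. Of the pair's reads, Polr3gl held 3.23% in control 1 (exact binomial 95% interval 0.0816 to 16.7) and 10% in control 5 (2.11 to 26.5). After RNAi its share ran from 0% to 40%, the latter in RNAi library 6 (19.1 to 63.9).

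In the embryos, too, the class values leave out Cd3eap, Znrd1, Twistnb and Crcp. The difference between the mean log2 levels of Pol I-only and Pol II-only members ran from -2.28 to -0.998 in the control embryos (median -1.57) and from -4.12 to -1.95 after RNAi (median -3.20). That of Pol III against Pol II subunits ran from -2.27 to -2.14 and from -2.64 to -1.82, so that the RNAi range held all controls. By class, the median log2 fold change was -2.18 for Pol I, -2.17 for the Pol I and III pair, -1.26 for the subunits of all 3 enzymes, -0.96 for Pol II and -0.74 for Pol III. Fall calls numbered 2 of 3, 2 of 2, 4 of 5, 2 of 7 and 2 of 10 in the same order, beside 12% of all genes tested.

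Among the polymerases' partner factors in the embryos, as among the members, more genes were called lower than higher, beside 12% lower and 6.13% higher over all genes tested. Of the Pol I factors 5 of 8 fell and 3 did not pass (median log2 fold change -1.48), among them Taf1d, of the Pol I selectivity factor, 3.84-fold, and the termination factor Ttf1, 4.76-fold (limma adjusted p = 0.00372 and 0.0122); small RNA genes and other genes overlap Taf1d. Of the Pol II elongation factors 11 of 23 fell and 12 did not pass (median -1.40), including Supt4a of the pausing factor DSIF, 5.50-fold, and the elongin subunit Elob, 6.27-fold (limma adjusted p = 0.0031 and 0.00372; Elob overlaps Srrm2). Of the Pol III factors 7 of 17 fell and 10 did not pass (median -1.04). Gtf3c6, of TFIIIC, was at 60.9 ± 18.3 in controls and 7.78 ± 5.75 after RNAi (SD, n = 5 and 6), 7.83-fold lower without overlap (limma adjusted p = 0.00244), and Gtf3c4 of the same factor fell 4.95-fold (adjusted p = 0.00563).

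Of the general factors of Pol II 2 of 30 rose and 5 fell (median -0.72), shares near those of all genes tested. Both TFIIF subunits fell, Gtf2f1 from 201 ± 39.8 to 44.1 ± 34.5 (SD, n = 5 and 6; 4.55-fold, limma adjusted p = 0.00307) and Gtf2f2 5.07-fold (adjusted p = 0.00502). Taf13 of TFIID and Gtf2a2 of TFIIA rose 3.04-fold and 2.31-fold (limma adjusted p = 0.0297 and 0.0408); these calls were lost in 8 and 10 of 20 alternatives (adjusted p up to 0.0656 and 0.105), each of them also without control 1, 2, 4 or 5 or without RNAi library 1, 3, 4 or 6. Of the assembly factors 3 of 12 fell and 1 rose (median -1.03). The GTPases Gpn3 and Gpn2 went opposite ways: Gpn3 fell 6.62-fold (limma adjusted p = 0.00458) and Gpn2 rose 2.44-fold, from 70.7 ± 19.2 to 173 ± 56.8 without overlap (SD, n = 5 and 6; adjusted p = 0.0109). Gpn3 overlaps Fam216a. The chaperone ATPase Ruvbl1 fell 4.83-fold (limma adjusted p = 0.00419). Polrmt, the separate polymerase of mitochondria, fell from 23.7 ± 8.09 to 2.65 ± 3.16 (SD, n = 5 and 6), 8.93-fold and without overlap (limma adjusted p = 0.00419), as 1 of 6 genes of mitochondrial transcription (median -0.39).

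Levels of different members were compared as normalised reads per kilobase of exon, within each table only. In control ESCs the order was led by Polr2a, at 3067 ± 130 (SD, n = 2), followed by Polr2m at 2002 and Polr2e at 1786, and at its low end were Polr3gl at 90.4 and Polr3f at 56.4. The neighbours Polr3e at 239 and Polr1a at 237 differed by less than the SD of Polr1a, 8.13. After overexpression Polr2a stood at 1207 ± 121 per kilobase. In control embryos the order was led by Polr2d at 317 ± 152 (SD, n = 5), Polr2c at 205 ± 30.8 and Polr2j at 182 ± 85.0, which do not differ beyond their spread. At the low end were Polr2a at 4.47, Polr3e at 4.29, Polr1a at 1.98 and Polr3gl at 0.472. By this measure the largest Pol II subunit was first of 27 in control ESCs and 25th of 28 in control embryos. In the embryo order, Polr2d and Polr2j at the top have short exon lengths (1015 and 1106 bases). Polr2a and Polr1a at the low end have long ones (7067 and 11871). Polr2c at the top (5256) and Polr3gl at the low end (1597) go the other way. The part of exon length in these ranks was not tested. Within a table the order after treatment was close to that of the controls (Spearman rho 0.92 in ESCs over 27 genes and 0.96 in embryos over 28), whereas that of control ESCs and control embryos was less alike (rho 0.45 over 27); each order uses the same exon lengths.

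**Figure D5:**
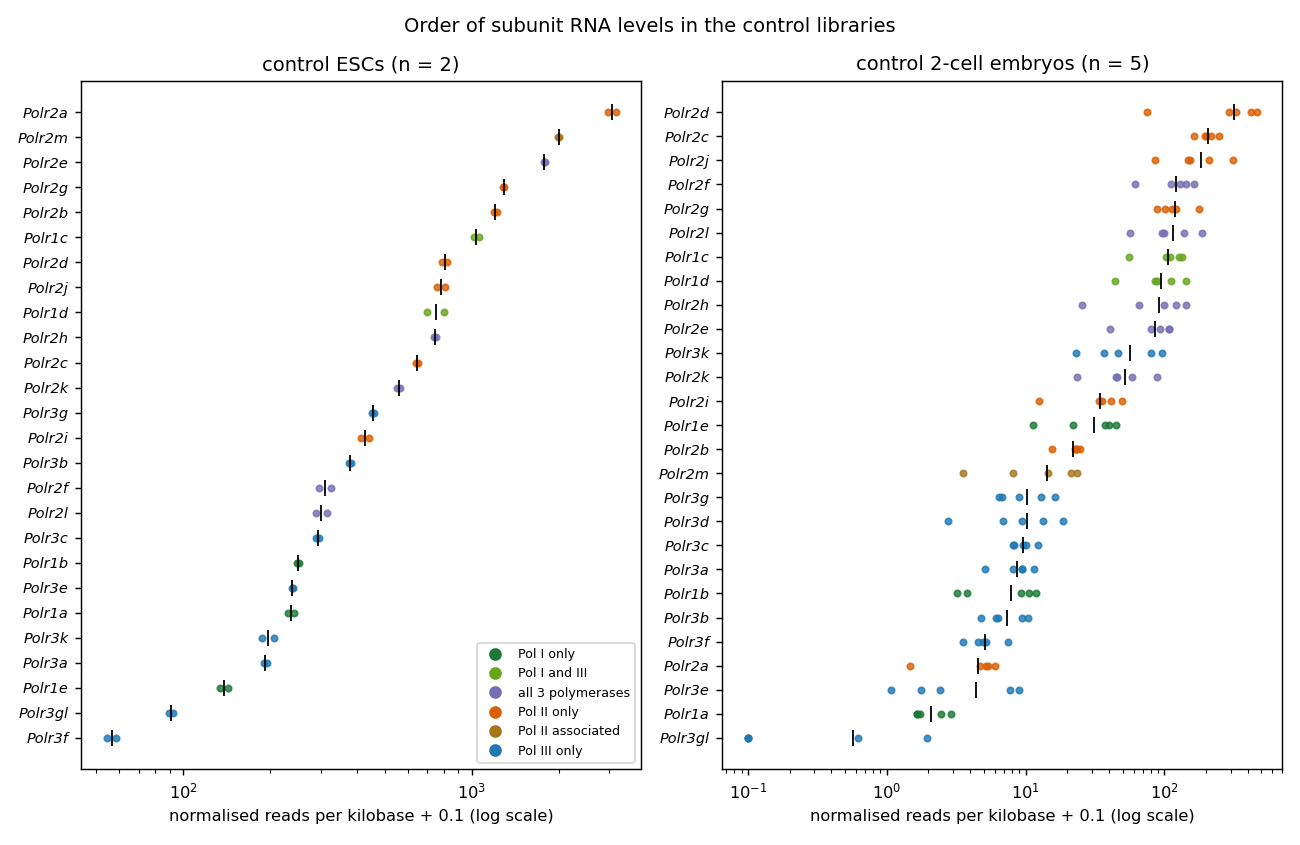
Normalised reads per kilobase of exon + 0.1 (log axis) in control ESCs (left, n = 2) and control 2-cell embryos (right, n = 5), members sorted by their mean; points are libraries, coloured by polymerase, and vertical ticks are means. Polr2a heads the ESC order and stands near the bottom of the embryo order, and Polr3gl is near the bottom of both.

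The ESC and embryo comparisons share no library, so that the members' values in each can be set side by side. Of the 27 members in both, 21 (77.8%) had a log2 fold change above 0 with overexpression in ESCs and below 0 with RNAi in embryos, against 28.9% of the 13350 genes tested in both. Polr1b, Polr1e and Polr2l were called higher in ESCs and lower in embryos, which are 3 of the 7 members called higher in ESCs and 3 of the 12 called lower in embryos. This is 11.1% of the 27 members, against 2.50% of all genes tested in both. Taken separately, 23 of 27 members were above 0 in ESCs and 25 of 28 below 0 in embryos. Of the 13350 genes, 1680 were called higher in ESCs and 1752 lower in embryos. The joint shares contain these separate leanings, and an overlap beyond them was not tested. Polr2a had the same sign in both comparisons, -1.35 and -1.13, with a fall called in ESCs only, and Polr3gl had opposite signs, -1.64 and 1.45, the latter from 4 reads in controls and 28 after RNAi.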

How the data were processed

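RNA was measured by sequencing in 15 mouse libraries: 2 control and 2 Zscan4 overexpression ESC libraries, and 5 control and 6 Zscan4 RNAi libraries of 2-cell embryos. Titles say RNA-Seq, although the labels give genomic DNA as the source and name a transposase DNA kit. Per the submitters' processing notes, Trimmomatic, HISAT2 and featureCounts were used with mm10; tool versions, the gene annotation, the strand and multi-mapping settings and how values were normalised were not given in the sources used here. Deposited values are a normalised signal, which the authors made from gene read counts by dividing by 1 factor per library: 100% of values in each library are whole multiples, within 0.01 read, of the library's step, which gave the reads back. The 2 tables were normalised separately.

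Genes that reached a value of 1 in 2 or more ESC libraries, or 5 or more embryo libraries (20888 and 16417 genes), were tested with limma 3.58.1 (trend) on log2(value + 1) in R 4.3.3, with Benjamini-Hochberg adjustment over all of them and a threshold of 0.05; all 27 and 28 members passed that filter. Changes printed as n-fold are ratios of the group means of normalised reads. The log2 fold changes are differences of mean log2(value + 1), and the limma p-values belong to these. The 2 measures can differ, and the log2 one can be the larger, as for Polr1e in embryos (7.05-fold beside -3.21). Adding 1 makes the log2 fold change of low genes smaller in size than it would be without it. The script was tested on simulated data. Because reads were recovered, edgeR 4.0.16 (quasi-likelihood) and DESeq2 1.42.0 were run on them as alternatives; edgeR called 8 and 10 members, and DESeq2 12 and 14. Floors for a count of 0 are 3 reads. Exon lengths, positions and overlaps are from GENCODE vM21. For 10 of 28 members an exon overlaps a gene on the other strand, among them Polr1a, Polr2b, Polr2c, Polr2f, Polr2h, Polr2i, Polr2j, Polr3b and Polr3gl. Counts, medians and class means cover every member, and the values of 1 member are not reported or drawn here. Values are given for members past the threshold in that comparison, the largest and second largest subunits and the pair Polr3g and Polr3gl. In ESCs they are given in each library. In embryos they are given in each control library, with a range and median for the RNAi libraries. A few other members were added after their values were seen. From each list of partner factors, up to 2 genes per comparison and direction with the smallest p are named. The members, lists and tests were chosen with earlier results of these data known.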

Additional observations from a re-analysis of the deposited data

Results flagged for a closer look

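Within the embryo groups, 8 of 56 sets of values of 1 member in 1 group had a highest or lowest library that stood apart by Dixon's criterion. For normally distributed values, chance meets it in about 1 in 20 sets. It was applied here to normalised reads without a log, some of them low or 0, so that rate need not hold and 8 of 56 is not set against it. Among the RNAi libraries, library 2 stood above the others for 3 members: it was at 45.9 normalised reads for Polr1b (others 1.16 to 9.13), 247 for Polr1d (others 74.6 to 124) and 27.9 for Polr2k (others 0 to 8.93). RNAi library 3 was at 60.0 for Polr3d (others 8.20 to 23.2) and RNAi library 1 at 11 for Polr3e (others 2.61 to 5.21). Among the controls, control 3 was low for both large Pol II subunits, at 9.74 for Polr2a (others 32.8 to 42) and 72.4 for Polr2b (others 105 to 115). Control 5 was at 2.93 for Polr3gl, from 3 reads (others 0 to 0.839). Control 3 was the embryo library with the fewest reads, 695524.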

How the results depend on the processing

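The ESC calls depended on the controls: of 27 members, 9 were called with all libraries, 0 without either control (0 of all genes), and 24 and 21 without overexpression library 1 or 2 (10855 and 9004 of all genes, against 4843). With the spread of the overexpression libraries alone, an alternative chosen after seeing the data, limma called 0 members and 0 genes (5 members and 4935 genes at an unadjusted p under 0.05). The other scalings, filters and tools called 7 to 12 members; voom with quality weights called 3281 genes, 62.5% of them higher. Same-numbered ESC libraries did not deviate together (r = -0.0072 across 20888 genes), so their numbers only name them; with a replicate block, limma called 11 members, without Polr2m and Polr3e (adjusted p = 0.121 and 0.130) and, among the partner factors, without Uri1 and Rpap1 (0.0836 and 0.121). No paired analysis was possible in the embryos because the control columns do not carry the label numbers. The median log2 fold change, by class and with 1 library left out, ran from 1.07 to 1.39 for Pol I (1.27 and 1.19 without control 1 or 2), -0.029 to 0.61 for the Pol I and III pair, 0.39 to 1.07 for the subunits of all 3 enzymes, 0.22 to 0.75 for Pol II and 0.22 to 0.67 for Pol III (0.46 with quantile normalisation). Signs changed for Polr3b (-0.016 with quantile normalisation, -0.25 without overexpression library 1), Polr3f (-0.053 without that library), and, without overexpression library 2, Polr2b (0.22), Polr1d (-0.19) and Polr2g (-0.021).

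In the embryos 5 to 14 of 28 members were called with 1 library left out (12 with all, 5 without control 2 and 6 without control 3) and 10 to 16 under the other alternatives; voom with quality weights called 3 of its 16 higher. Quantile normalisation called 3005 genes, 46.5% of them higher against 33.8%, and moved the median of all genes from -0.03 to 0.14; under it Polr3c was at 0.049 and Polr3f at 0.0039. The cause of these differences was not tested. Depth limits Polr3gl, Polr3e, Polr3b, Polr1a and Polr2k in the embryos, with 28, 36, 52, 59 and 69 reads over all RNAi libraries.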
